A study of Mus musculus with 6 samples.

Results

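The class II and class IV histone deacetylases of mouse are Hdac4, Hdac5, Hdac7 and Hdac9 (class IIa), Hdac6 and Hdac10 (class IIb) and Hdac11 (class IV). Their mRNA was followed on 6 one-colour Affymetrix arrays of E14 mouse embryonic stem cells. The members were the genes whose symbol stood alone beside a probeset in the array annotation, and all 7 of 7 were found, out of 19938 genes measured in the same way. They were covered by 8 probesets, since Hdac4 had 2, of which the brighter one on average was used. The cells were exposed for 16 h to 0.5 mM valproic acid (VPA, 2 arrays) or to 0.2 mM sodium butyrate (NaBu, 2 arrays), or were left untreated (2 arrays). All 3 groups were grown in serum with the cytokine LIF on a layer of embryonic fibroblasts that mitomycin C had stopped from dividing. No vehicle is named for the untreated cells. The labels number the replicates 1 and 2 and do not say whether these were separate cultures, so the p-values measure only the spread between these samples.

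Histone deacetylases remove acetyl groups from lysines of histones and of many other proteins. Class IIa enzymes have little catalytic activity of their own on acetyl-lysine: they bind MEF2 transcription factors on DNA, recruit a corepressor complex that holds Hdac3, and leave the nucleus when kinases phosphorylate them and 14-3-3 proteins bind. Hdac6 works in the cytoplasm on tubulin, cortactin and the chaperone Hsp90, Hdac10 is a polyamine deacetylase, and Hdac11 removes long fatty acyl groups, among others from Shmt2. VPA and butyrate are short-chain fatty acids that inhibit class I and class IIa enzymes and largely spare Hdac6 and Hdac10.

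RefSeq promoter sequences (GRCm38.p6, from 250 bases before to 50 after a start site) were matched by symbol to 6 of the 7 members, with 10 start sites in all. Those of Hdac4, Hdac5, Hdac6 and the upstream start of Hdac9 are shown 5′ to 3′ on the strand of the gene, because Hdac5, Hdac9 and Hdac6 had the widest range over the arrays, and Hdac4 is a further class IIa gene with 1 start site to set beside them. Capitals mark matches, on either strand, to the GC box (GGGCGG), the CCAAT box, the E box (CACGTG), the CRE core (TGACGT), the TATA box (TATAAA) and the MEF2 consensus.
Hdac4 (chr1:92180292-92180591, minus strand): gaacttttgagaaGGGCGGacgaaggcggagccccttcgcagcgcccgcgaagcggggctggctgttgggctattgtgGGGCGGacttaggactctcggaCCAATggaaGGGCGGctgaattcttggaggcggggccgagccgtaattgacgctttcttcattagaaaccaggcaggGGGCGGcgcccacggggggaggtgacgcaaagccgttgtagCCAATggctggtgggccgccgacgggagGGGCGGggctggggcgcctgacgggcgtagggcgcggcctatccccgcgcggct
Hdac5 (chr11:102230123-102230422, minus strand): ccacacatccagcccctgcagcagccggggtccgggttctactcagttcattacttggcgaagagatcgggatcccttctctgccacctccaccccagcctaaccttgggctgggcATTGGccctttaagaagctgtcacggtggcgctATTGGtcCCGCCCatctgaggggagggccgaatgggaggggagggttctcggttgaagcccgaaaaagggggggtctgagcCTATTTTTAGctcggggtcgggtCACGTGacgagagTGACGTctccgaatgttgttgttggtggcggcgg
Hdac6 (chrX:7947840-7948139, minus strand): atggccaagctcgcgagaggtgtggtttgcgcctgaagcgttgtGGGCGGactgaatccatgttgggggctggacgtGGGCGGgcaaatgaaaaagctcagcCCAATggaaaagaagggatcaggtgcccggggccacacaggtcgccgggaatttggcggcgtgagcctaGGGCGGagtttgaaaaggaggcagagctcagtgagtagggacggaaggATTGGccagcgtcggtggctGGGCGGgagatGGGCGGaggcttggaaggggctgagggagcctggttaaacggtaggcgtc
Hdac9 (chr12:34917046-34917345, minus strand): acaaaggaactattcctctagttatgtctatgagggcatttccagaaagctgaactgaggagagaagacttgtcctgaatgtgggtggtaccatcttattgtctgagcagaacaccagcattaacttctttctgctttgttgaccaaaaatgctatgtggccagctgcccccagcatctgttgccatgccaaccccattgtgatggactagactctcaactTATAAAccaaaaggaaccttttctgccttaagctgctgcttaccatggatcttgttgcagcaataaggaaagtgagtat
The Hdac4 and Hdac6 windows each held 5 GC boxes and 2 CCAAT boxes. The window of Hdac5 held 1 GC box, 2 CCAAT boxes, 1 E box, 1 CRE core and 1 MEF2 consensus match whose first base lay 20 bases before the start. The Hdac9 window held none of these except 1 TATA box, and had 0 CG dinucleotides, against 32 in that of Hdac4, 18 in that of Hdac5 and 20 in that of Hdac6. None of the matches overlapped a match to another motif. Of 32851 RefSeq promoters of the same length, 35.7% held a GC box, 37.4% a CCAAT box, 7.15% an E box, 7.51% a CRE core, 13.6% a TATA box and 3.19% a MEF2 match, and the median promoter had 7 CG. Such matches describe the letters in these windows only.

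The deposited values are log2 expression after RMA, so 1 unit is a doubling, and levels of different genes are not compared because each probeset has its own response. Array medians over all genes lay between 5.71 and 5.79. The stem cell markers Pou5f1, Sox2 and Nanog had log2 levels between 10.79 and 11.90 on every array. Over all 10 stem cell markers, single values ran from 4.22 upwards. Of 18 feeder fibroblast markers 17 were measured, with single values from 2.93 upwards. RMA values do not reach 0 and come here without detection calls, so presence was not tested. Col1a1, a fibroblast collagen, lay between 8.18 and 9.66 on the 6 arrays. The arrays of replicate numbers 1 and 2 differed throughout: the numbers were separated by the first principal component, with 53.6% of the variance. For that reason each difference is also given within replicate number 1 and within replicate number 2.

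**Figure D1:**
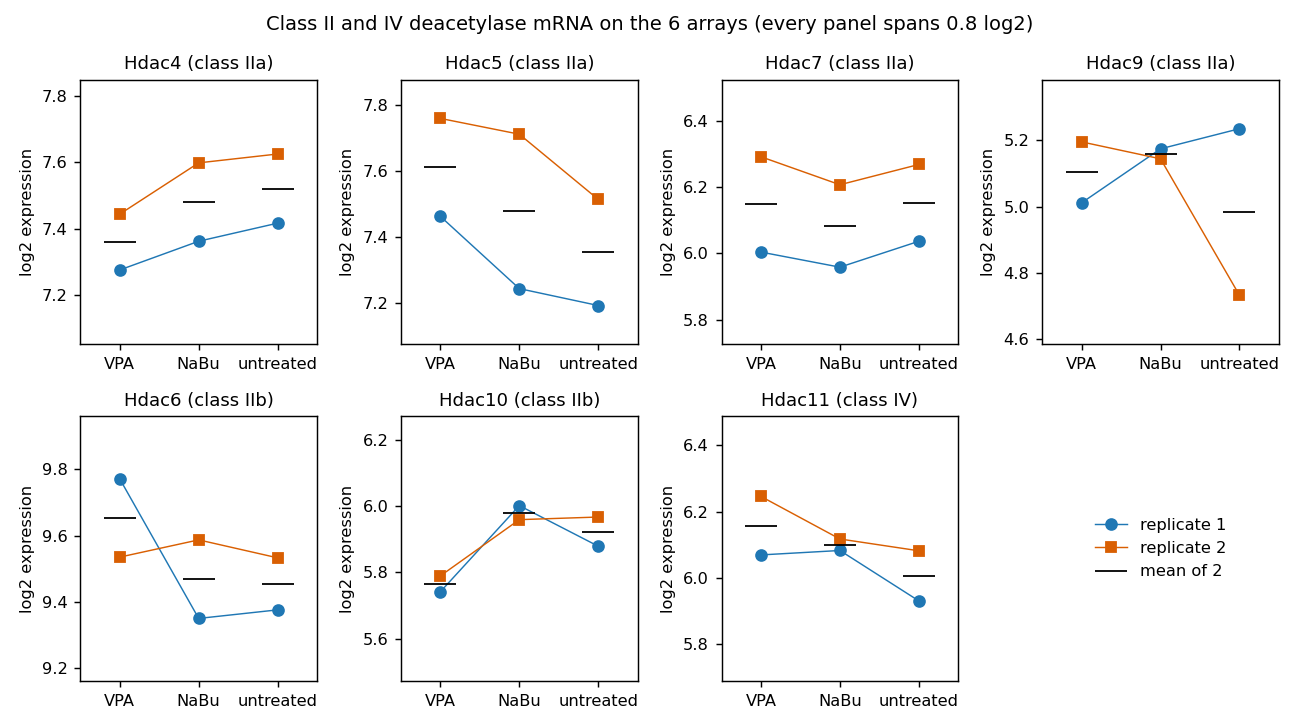
Log2 expression of the 7 genes (y axis, 0.8 log2 units in every panel) on the VPA, NaBu and untreated arrays (x axis); circles are replicate 1, squares replicate 2, lines join arrays of the same number and black bars are means of 2 arrays. Replicate 2 lies above replicate 1 in all 3 groups for Hdac4, Hdac5, Hdac7 and Hdac11, and the VPA values of Hdac10 lie below those of the other 4 arrays.

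VPA was set against untreated cells to ask whether a low dose of the inhibitor was accompanied by altered expression of these enzymes, and no member passed the test. limma (moderated statistic, Benjamini-Hochberg adjustment over all genes) called 0 of the 7 at an adjusted p of 0.05, as it called 0 of 19938 genes (0.0%). Adjusted p-values of the members ran from 0.964 to 0.999, and 0 of the 7 had an unadjusted p under 0.05, against 981 of all genes (4.92%). Log2 differences of the 7 ran from -0.16 for Hdac4 to 0.26 for Hdac5, with 4 above 0 (53.0% of all genes) and 3 below (47.0%). Their median was 0.12, against 0.013 over all genes, and their median size regardless of sign was 0.16, against 0.12 over all genes. In bulk samples such as these, fewer cells of a type and less RNA per cell cannot be told apart.

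Hdac5, a class IIa enzyme that binds MEF2 factors and is exported from the nucleus by signals of kinases, had log2 levels of 7.46 and 7.76 in VPA cells, 7.24 and 7.71 in NaBu cells, and 7.19 and 7.51 in untreated cells. The VPA and untreated values overlapped, yet VPA lay above untreated by nearly the same amount within each number, by 0.27 in number 1 and 0.24 in number 2. The difference of 0.26 (95% interval -0.25 to 0.77, a 1.20-fold level) had an adjusted p of 0.969 in limma.

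Hdac4, the class IIa enzyme best known as a brake on cartilage maturation and muscle genes, had log2 levels of 7.27 and 7.44 in VPA cells, 7.36 and 7.60 in NaBu cells, and 7.42 and 7.63 in untreated cells. VPA was the lower one within both numbers (VPA minus untreated -0.14 and -0.18), while the groups overlapped. The difference was -0.16 (95% interval -0.52 to 0.20, adjusted p 0.971 in limma). The other probeset of Hdac4 read 6.62 and 6.95 in VPA cells, 6.61 and 7.12 in NaBu cells, and 7.01 and 7.26 in untreated cells. There the 2 VPA values lay below both untreated values and the difference, from a limma fit of all probesets, was -0.35 (95% interval -0.91 to 0.21, adjusted p 0.986). Both probesets thus lay in the same direction and neither passed.

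Hdac7, which represses genes in thymocytes and maintains vessel integrity in the mouse embryo, had log2 levels of 6.004 and 6.292 in VPA cells, 5.96 and 6.21 in NaBu cells, and 6.04 and 6.27 in untreated cells. NaBu was the lowest condition in both numbers, and VPA minus untreated was -0.033 in number 1 and 0.023 in number 2. The difference of -0.0047 had a 95% interval of -0.41 to 0.40 in limma. Hdac9, the class IIa member enriched in muscle and brain, had log2 levels of 5.01 and 5.20 in VPA cells, 5.17 and 5.14 in NaBu cells, and 5.24 and 4.73 in untreated cells. Its untreated replicate 2 was the lowest of the 6 arrays and its untreated replicate 1 the highest, so VPA minus untreated was -0.22 in number 1 and 0.46 in number 2. The difference was 0.12 (95% interval -0.33 to 0.57) and turned to -0.13 without untreated replicate 2.

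Hdac6, the tubulin deacetylase, had log2 levels of 9.77 and 9.53 in VPA cells, 9.35 and 9.59 in NaBu cells, and 9.38 and 9.53 in untreated cells. VPA replicate 1 stood above the other 5 arrays, and the gap to the untreated array was 0.40 in number 1 and 0.0022 in number 2. The difference was 0.20 (95% interval -0.16 to 0.56, adjusted p 0.969 in limma) and 0.081 without VPA replicate 1. Hdac10, the polyamine deacetylase, had log2 levels of 5.74 and 5.79 in VPA cells, 6.002 and 5.960 in NaBu cells, and 5.88 and 5.97 in untreated cells. Both VPA arrays lay below the other 4, and VPA minus untreated was -0.14 in number 1 and -0.18 in number 2. The difference was -0.16 (95% interval -0.43 to 0.11, adjusted p 0.964 in limma), a 0.896-fold level. Hdac11, the only class IV enzyme, had log2 levels of 6.07 and 6.25 in VPA cells, 6.08 and 6.12 in NaBu cells, and 5.93 and 6.08 in untreated cells. VPA was the higher one within both numbers, by 0.14 and 0.16, with a small overlap of the groups. The difference was 0.15 (95% interval -0.15 to 0.46, adjusted p 0.969 in limma).

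Across the members, VPA lay above untreated in both numbers for 3 of 7 (Hdac5, Hdac6 and Hdac11), against 32.0% of all genes. It lay below in both for 2 of 7 (Hdac4 and Hdac10), against 28.0% of all genes. Groups without overlap were found for 1 member in each direction, Hdac6 higher and Hdac10 lower, against 19.1% and 15.6% of all genes. These shares do not set the members apart from the array. On the fold scale the intervals of the 7 genes reached from 0.698 (Hdac4) to 1.70 (Hdac5). The mean log2 level of the feeder markers, VPA minus untreated, was -0.17 within number 1 and 0.19 within number 2, and 10 of the 17 lay above 0. Stem cell markers were lower with VPA within both numbers: their mean log2 level, VPA minus untreated, was -0.36 in number 1 and -0.26 in number 2. Of the 10, 9 lay below 0, with a median of -0.27 and 0 called by limma. With VPA, Fgf4 stood at -0.86 and Pou5f1 at -0.64, while Sox2 stood at -0.021 and Tdgf1 at 0.020. Pou5f1, a core pluripotency factor, read 11.12 and 11.13 in VPA cells, 11.68 and 11.56 in NaBu cells, and 11.90 and 11.63 in untreated cells. Its VPA difference had an adjusted p of 0.964 in limma. The part of either cell type in the differences of the members was not tested.

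**Figure D2:**
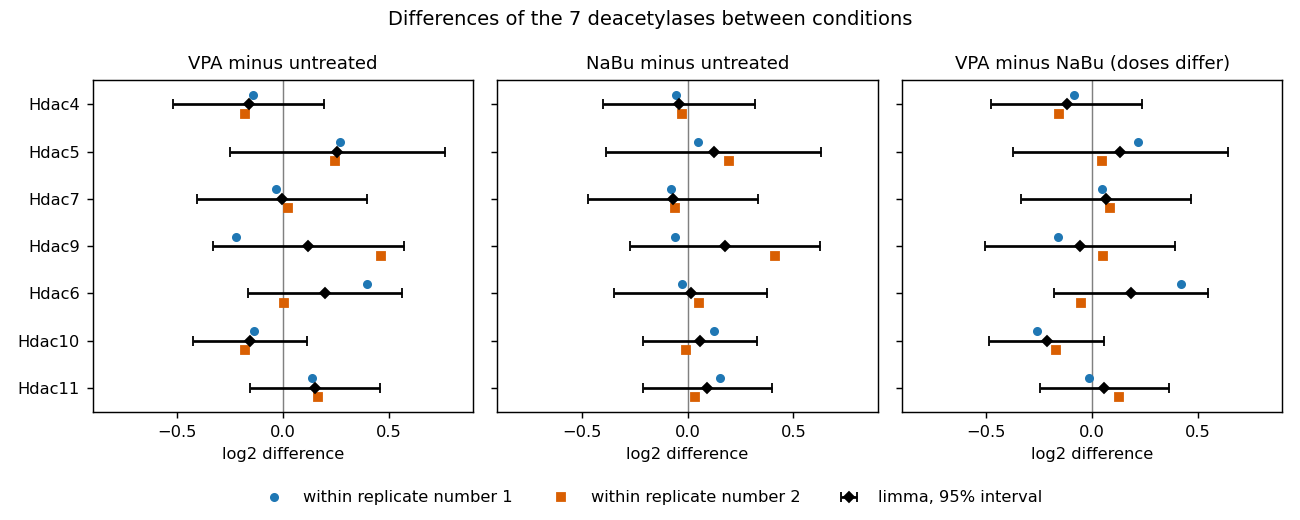
Log2 differences (x axis) of the 7 genes (rows) for VPA minus untreated, NaBu minus untreated and VPA minus NaBu; diamonds with bars are limma estimates with 95% intervals, circles and squares the differences within replicate numbers 1 and 2. The fits shown leave the replicate number out of the model, and all 21 intervals include 0. With the number in the model, the VPA minus untreated interval of Hdac5 was 0.0033 to 0.51, at an adjusted p of 0.372 in limma. In that fit 2636 of 19938 genes had an unadjusted p under 0.05.

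NaBu was set against untreated cells in the same way, and again no member passed. limma called 0 of 7 members and 0 of 19938 genes (0.0%), with adjusted p-values of 1.00 for every member, 0 of 7 at an unadjusted p under 0.05 and 311 of all genes (1.56%). The log2 differences ran from -0.070 to 0.18, with 5 above 0 (54.3% of all genes) and 2 below (45.7%). Their median was 0.058, against 0.014 over all genes, and their median size regardless of sign was 0.070, against 0.086 over all genes. Both treatments share the same untreated arrays, so their differences are not independent of each other.

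Among the probesets used, Hdac9 had the largest NaBu difference, 0.18 (95% interval -0.27 to 0.63 in limma). It was made up of -0.061 in number 1 and 0.41 in number 2. Without untreated replicate 2 it was -0.076. Hdac5 stood at 0.12 (95% interval -0.38 to 0.63), with 0.051 and 0.20 within the numbers. Hdac11 stood at 0.094 (95% interval -0.21 to 0.40), with 0.15 and 0.036, and was the only member whose 2 NaBu values lay above both untreated values, against 12.7% of all genes. For 0 members did both lie below, against 11.2%. Hdac10 stood at 0.058, Hdac6 at 0.014, Hdac4 at -0.041 and Hdac7 at -0.070, each with an interval that includes 0. The other probeset of Hdac4 stood lower, at -0.27 (95% interval -0.83 to 0.30) in a limma fit of all probesets. Within the numbers that probeset gave -0.40 in number 1 and -0.13 in number 2. NaBu was above untreated in both numbers for 2 of 7 members (Hdac5 and Hdac11, against 29.1% of all genes) and below in both for 2 (Hdac4 and Hdac7, against 23.1%). The feeder marker mean was higher with NaBu by 0.11 in number 1 and by 0.25 in number 2, with 16 of 17 above 0. The stem cell marker mean stood at -0.011 in number 1 and -0.10 in number 2, with 7 of 10 below 0. Their part in the values of the members was not tested.

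VPA and NaBu were given at different doses, so VPA minus NaBu sets 0.5 mM of the branched-chain acid beside 0.2 mM of the straight-chain one. limma called 0 of 7 members and 0 of 19938 genes (0.0%), with 724 genes at an unadjusted p under 0.05 (3.63%) and 0 of the members. Hdac10 had the largest value, -0.22 (95% interval -0.49 to 0.055, adjusted p 0.998). It was -0.26 in number 1 and -0.17 in number 2, without overlap of the groups, as were 14.6% of all genes in that direction. No member was higher with VPA without overlap, against 16.0% of all genes. Hdac6 stood at 0.18 (95% interval -0.18 to 0.55), with 0.42 in number 1 and -0.052 in number 2. Hdac5 stood at 0.13, Hdac7 at 0.065 and Hdac11 at 0.058, and Hdac4 at -0.12 and Hdac9 at -0.056. The intervals do not show that the compounds act alike on these genes: they allow differences of up to 0.64 for Hdac5. Stem cell markers lay below 0 in VPA minus NaBu for 8 of 10, with a median of -0.30, and feeder markers for 13 of 17, with a median of -0.20. The median over all genes was 0.00098, and the share of all genes below 0 is not reported here. The part of either cell type in the values of the members was not tested.

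The members were also compared between replicate numbers, a comparison added after the values had been seen. Replicate 2 lay above replicate 1 in all 3 groups for 4 of 7 members (Hdac4, Hdac5, Hdac7 and Hdac11), against 23.2% of all genes, and below it in all 3 groups for 0 members, against 23.5%. Hdac5 was higher by 0.30 on the VPA arrays, 0.47 on the NaBu arrays and 0.32 on the untreated arrays. The limma model with the replicate number gave 0.36 (95% interval 0.15 to 0.57, adjusted p 0.0391) for Hdac5, the 1 member called higher in replicate 2, against 6.04% of all genes. None was called lower, against 5.56%. The call was lost, at 0.38 (adjusted p 0.124), without untreated replicate 1 or 2, at 0.31 (adjusted p 0.191) without NaBu replicate 1 or 2, and at an adjusted p of 0.127 when all probesets were tested. Hdac7 stood at 0.26 (95% interval 0.058 to 0.46, adjusted p 0.0981), and was called, at an adjusted p of 0.0477, when only the brighter 50% of genes were tested. That test called 2644 of 9969 genes. Hdac4 stood at 0.21 (95% interval 0.0056 to 0.40, adjusted p 0.177).

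Among the other members, Hdac11 stood at 0.12, Hdac6 at 0.053, Hdac10 at 0.031 and Hdac9 at -0.12, each with an interval that includes 0. The class I enzymes Hdac1 and Hdac2, the catalytic subunits of the Sin3, NuRD and CoREST complexes, lay lower in replicate 2, at -0.37 (adjusted p 0.0411) and -0.29 (adjusted p 0.0876). Hdac3, the enzyme that class IIa proteins recruit, stood at 0.21 (adjusted p 0.205). Feeder markers moved with the numbers as well: 16 of 17 were higher in replicate 2, 9 of them called. Their mean log2 level was 7.58, 7.64 and 7.38 on the VPA, NaBu and untreated arrays of replicate 2, against 6.66, 6.93 and 6.82 on those of replicate 1. Of 10 stem cell markers 8 were lower in replicate 2, 1 of them called. The part of feeder RNA in the replicate difference of Hdac4, Hdac5 and Hdac7 was not tested.

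**Figure D3:**
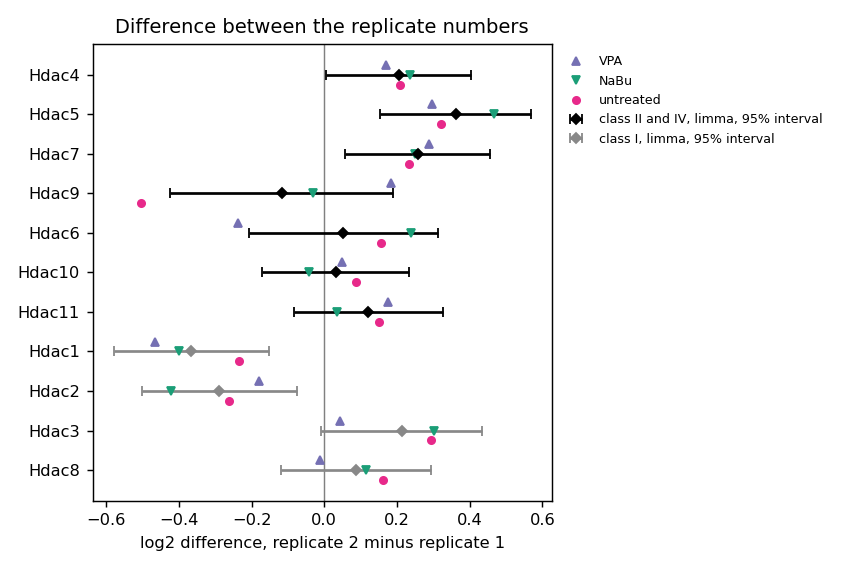
Log2 difference of replicate 2 minus replicate 1 (x axis) for the 7 class II and IV genes (black) and the 4 class I genes (grey); diamonds with bars are limma estimates with 95% intervals, and triangles and circles the differences within the VPA, NaBu and untreated groups. Hdac4, Hdac5 and Hdac7 lie above 0 in every group, and Hdac1 and Hdac2 below 0.

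The genes whose pattern over the 6 arrays was most like that of a member were read for the 3 members with the widest range. Likeness was the root mean square difference of log2 values centred on each gene's mean, over 6 arrays and 17089 genes. For Hdac5 these were Itpr2, an inositol trisphosphate receptor calcium channel, at 0.021, and Gsn, the actin-severing protein gelsolin, at 0.024. For Hdac6 they were Fam171a2 at 0.017 and Galnt18 at 0.018, and for Hdac9 they were Pde3b, a cyclic nucleotide phosphodiesterase, at 0.042 and Glipr1l1 at 0.043. The replicate difference enters the likeness of Hdac5, which was higher in replicate 2 in all 3 groups. For Hdac6, replicate 2 minus replicate 1 was -0.24 on the VPA, 0.24 on the NaBu and 0.16 on the untreated arrays. For Hdac9 it was 0.18, -0.030 and -0.50, so these 2 genes had no shared direction between the numbers.

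**Figure D4:**
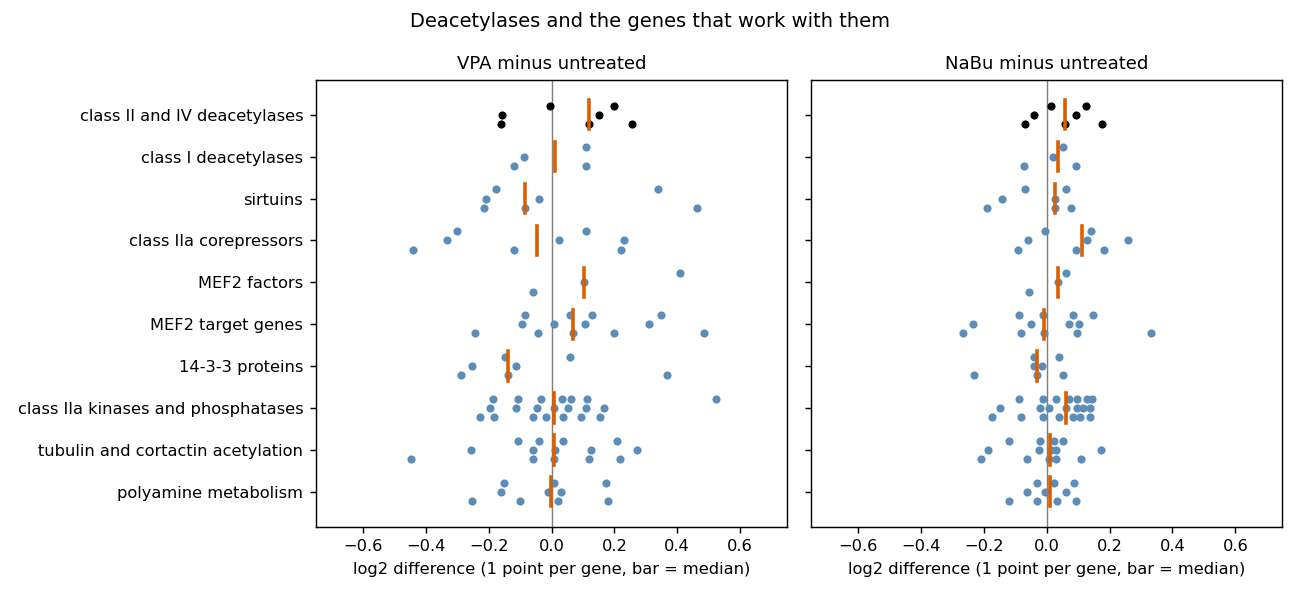
Log2 differences (x axis, 1 point per gene) of the 7 deacetylases (black) and of 9 related gene lists (blue) for VPA minus untreated and NaBu minus untreated; orange bars are medians. The medians of the 7 genes are 0.12 with VPA and 0.058 with NaBu.

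The genes that work with these enzymes were read as lists, and limma called none of their members with either compound. Class I enzymes had a median of 0.010 with VPA and 0.035 with NaBu. With VPA, Hdac1 stood at 0.11, Hdac3 at 0.11, Hdac2 at -0.088 and Hdac8 at -0.12, all within the span of the class II and IV genes.

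Among the partners of class IIa enzymes, the MEF2 factors stood at 0.41 (Mef2c, 95% interval 0.038 to 0.78), 0.10 (Mef2d) and -0.060 (Mef2a) with VPA. With NaBu they stood at -0.057 (Mef2c), 0.061 (Mef2d) and 0.037 (Mef2a). Mef2c, which guides heart and neuron development, read 4.71 and 4.56 in VPA cells, against 4.21 and 4.25 in untreated cells, at an adjusted p of 0.964 in limma. These groups did not overlap, as for 19.1% of all genes in that direction, and the values lay below every array median over all genes. Of 13 genes described as MEF2 targets, 9 lay above 0 with VPA and 6 with NaBu, with medians of 0.069 and -0.0084, from Slc2a4 (0.48) and Des (0.35) down to Pgam2 (-0.24) and Jun (-0.094) with VPA. The corepressor list had a median of -0.047 over 8 of 10 genes with VPA, from Gps2 (0.23) and Bcl6 (0.22) down to Tbl1xr1 (-0.44, 95% interval -0.83 to -0.053) and Tbl1x (-0.33). Tbl1xr1, an exchange factor of that corepressor complex, read 8.42 and 8.84 in VPA cells, 9.20 and 9.21 in NaBu cells, and 9.07 and 9.08 in untreated cells. The list median with NaBu was 0.11.

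The kinases and phosphatases that set the location of class IIa enzymes had a median of 0.0091 with VPA (11 of 21 above 0) and 0.062 with NaBu (14 of 21). Prkd1, a protein kinase D that phosphorylates class IIa enzymes, read 5.01 and 4.98 in VPA cells, 4.49 and 4.64 in NaBu cells, and 4.50 and 4.44 in untreated cells. Its VPA difference was 0.52 (95% interval 0.24 to 0.81), even within both numbers at 0.50 and 0.55, but the adjusted p was 0.964 in limma. Every Prkd1 value lay below every array median over all genes. Sik2 stood at 0.17, Mark2 at -0.19 and Camk1 at -0.23. The 14-3-3 genes had a median of -0.14 with VPA and -0.031 with NaBu, with 5 of 7 below 0 in each: Sfn stood at 0.37, Ywhab at 0.057, Ywhah at -0.25 and Ywhaq at -0.29 with VPA. For Sfn, VPA minus untreated was 1.00 in number 1 and -0.27 in number 2.

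The remaining lists hold genes around the substrates of the class IIb and class IV enzymes. The tubulin and cortactin list stood at 0.0091 with VPA and 0.0096 with NaBu over 14 of 18 genes. In it the tubulin Tubb5 read 11.70 and 11.68 in VPA cells, 12.02 and 11.87 in NaBu cells, and 12.28 and 11.98 in untreated cells. Its VPA difference was -0.45 (95% interval -0.79 to -0.10, adjusted p 0.964 in limma). Atat1, the tubulin acetyltransferase that opposes Hdac6, stood at 0.12, the autophagy receptor Sqstm1 at 0.27, Dync1h1 at 0.22 and Tuba4a at -0.26. Polyamine genes had medians of -0.0011 with VPA and 0.0094 with NaBu over 10 of 14 genes, with Azin1 at 0.18, Oaz2 at 0.17, Dohh at -0.16 and the spermidine synthase Srm at -0.25 with VPA. Shmt2, the Hdac11 substrate of serine metabolism, stood at -0.24 with VPA (95% interval -0.59 to 0.11) and -0.19 with NaBu, lower within both numbers for each compound.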

How the data were processed

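The log2 values deposited by the authors, 1 column per array and 35556 probesets, come from RMA. The program was Affymetrix Expression Console 1.1, as the submitters' processing notes say. Settings, library files and genome build: not given in the sources used here. Column medians over all probesets lay between 5.01 and 5.09. The log2 scale is taken from RMA, and the genes were not centred.

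The platform annotation gave 1 symbol for 21789 probesets, several for 1621, and did not list 12146. The highest-mean probeset stood for each of 19938 genes, 999 of which had more than 1. Gene IDs of 21698 probesets matched RefSeq (GRCm38.p6), used for symbols.

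Groups were compared with limma 3.58.1 (lmFit and eBayes) in R 4.3.3, with 1 mean per group over 6 arrays (3 residual degrees of freedom) and Benjamini-Hochberg adjustment over all genes at 0.05. Intervals are 95% intervals. An exact permutation test of 2 against 2 arrays cannot go below p = 0.333. The number of arrays limits the precision. The procedure was tested on simulated data with added differences larger than that of any member, so the simulation does not show whether small differences would be found.

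Because the numbers separated along the first principal component, limma was also run with the number in the model.

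Members, gene lists and tests were chosen with earlier results of these data known. Named genes were all members, up to 2 genes at each end of a list's VPA difference, and 10 genes named in any case where reported here.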

Additional observations from a re-analysis of the deposited data

How the results depend on the processing

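For VPA against untreated, NaBu against untreated and VPA against NaBu, 0 genes and 0 members were called under every alternative run: the replicate block, leaving out each array, median centring, quantile normalization, the brighter 50% of genes, only the groups compared, an intensity trend, the mean of probesets, and all probesets. Arrays of 1 number shared their deviations from the group means across genes (r = 0.558 for VPA and untreated, 0.693 for NaBu and untreated, 0.567 for VPA and NaBu), a hint from the data that the labels do not state. The block changed no call of these comparisons. With it the VPA difference of Hdac5 had a 95% interval of 0.0033 to 0.51, an unadjusted p of 0.0477 in limma and an adjusted p of 0.372. Hdac5 was the 1 member of 7 under an unadjusted 0.05 with the block, beside 2636 of 19938 genes in the same fit. Without the block there were 0 members. The block also gave narrower intervals for other members, such as -0.41 to 0.083 for Hdac4. Over all genes, unadjusted counts at 0.05 were 2636 genes for VPA, 916 for NaBu and 2150 between the compounds, against 981, 311 and 724 without it. Of 374 recomputed member differences, replicate numbers included, 25 changed sign. The replicate block, the intensity trend and several other settings cannot change the estimate of most members. The count is therefore no measure of how stable the signs are. Quantile normalization gave -0.0026 for Hdac6 with NaBu and -0.012 for Hdac10 between replicates 2 and 1, and median centring -0.0090 for the last. With 1 array left out, VPA differences ranged from -0.15 to 0.14 for Hdac7, -0.13 to 0.37 for Hdac9, 0.097 to 0.42 for Hdac5, -0.27 to -0.057 for Hdac4, 0.081 to 0.32 for Hdac6, -0.20 to -0.11 for Hdac10 and 0.063 to 0.24 for Hdac11. NaBu differences ranged from -0.16 to 0.078 for Hdac4, -0.11 to 0.36 for Hdac5, -0.10 to 0.13 for Hdac6, -0.19 to 0.055 for Hdac7, -0.076 to 0.43 for Hdac9, 0.013 to 0.10 for Hdac10 and 0.018 to 0.17 for Hdac11. VPA minus NaBu ranged from -0.24 to -0.0024 for Hdac4, -0.10 to 0.37 for Hdac5, 0.066 to 0.30 for Hdac6 and -0.079 to 0.21 for Hdac7. It ranged from -0.15 to 0.036 for Hdac9, -0.24 to -0.19 for Hdac10 and -0.031 to 0.15 for Hdac11. These fits have no block, so part of the replicate difference enters them. Between replicates 2 and 1, the ranges were -0.040 to 0.20 for Hdac6 and -0.27 to 0.077 for Hdac9, with 716 to 2434 genes and 0 to 1 members called, against 2313 genes and 1 member with all arrays. There, 2 of 6 members were called among the brighter 50% of genes, beside 2644 of 9969 genes in the same fit. All probesets gave 603 calls and 0 members (the single-symbol genes are then adjusted together with unlisted probesets). The cause was not tested. Hdac9 lay below the median gene, so only 6 members entered that filter. The table holds no detection calls, so signal over background was not used.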

Other observations

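Sirtuins, the NAD-dependent deacylases that are unrelated in structure to the deacetylases above, spread more widely with VPA. Of 7 sirtuins 2 lay above 0 and 5 below, with a median of -0.083, and limma called 0 of them. Sirt7, a nucleolar deacylase, read 7.34 and 6.57 in VPA cells, 6.77 and 6.34 in NaBu cells, and 6.60 and 6.38 in untreated cells. Its VPA difference was 0.46 (95% interval -0.21 to 1.14), with 0.73 in number 1 and 0.19 in number 2. Sirt2, which like Hdac6 deacetylates tubulin, stood at 0.34 with VPA, with 0.60 in number 1 and 0.078 in number 2, and at 0.027 with NaBu. VPA replicate 1 was the highest of the 6 arrays for Sirt7, Sirt2 and Hdac6, as it was for Hdac1 and Sfn. The share of all genes with that array highest was not counted. At the other end Sirt3 stood at -0.21 and Sirt6 at -0.21 with VPA.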
